A study of Mus musculus with 18 samples.

Results

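The genes described here are 8 genes of fatty acid uptake by the endothelium and of the *Pparg* axis: *Cd36*, *Gpihbp1*, *Lpl*, *Fabp4*, *Fabp5*, *Pparg*, *Ppargc1a* and *Ucp2*. They were taken by gene symbol from an array table that names 22909 genes, and all 8 were found. Their signals were compared in the 3 major cell types of the mouse glomerulus, in *Cd2ap* mutants and wild type mice. *Cd2ap* encodes an adapter protein of the podocyte slit diaphragm, and mice that lack it develop nephrotic syndrome and glomerulosclerosis. Glomeruli were isolated by sieving at 5 weeks of age, and cells positive for green fluorescent protein (GFP) were purified by FACS. Endothelial cells were marked by a Tie2-GFP transgene and mesangial cells by Meis1-GFP, and each cell type came from a reporter strain of its own, so cell type and reporter strain cannot be told apart. Each cell type gave 3 arrays of CD2AP-/- mutants and 3 arrays of wild type controls, 18 arrays in all, described as biological triplicates. The columns of the 3 mesangial controls carry the mark +/- in place of +/+, and their titles say control. They are called wild type here, as their genotype field has it. Whether cells of several mice were pooled for an array is not stated. The letters A, B and C name the arrays of a group by column order and carry no further meaning.

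Fatty acids reach tissues from the blood mostly in triglyceride-rich lipoproteins. Lipoprotein lipase, encoded by *Lpl*, is made by parenchymal cells and carried by GPIHBP1 to the luminal face of capillary endothelium, where it frees fatty acids. These cross the endothelial cell with the help of the scavenger receptor CD36 and the cytoplasmic fatty acid binding proteins FABP4 and FABP5. PPARγ, encoded by *Pparg*, is a nuclear receptor that binds fatty acids and activates *Cd36*, *Fabp4*, *Gpihbp1* and *Lpl* in several tissues. PGC-1α, encoded by *Ppargc1a*, is a coactivator of PPARγ and of mitochondrial biogenesis, and UCP2 is a carrier of the inner mitochondrial membrane that fatty acids can activate.

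PPARγ binds DNA with a retinoid X receptor at paired copies of the word AGGTCA, and the promoters of *Cd36*, *Ucp2* and the receptor's own gene are therefore shown with this word in capitals. They come from RefSeq (GRCm38.p6) and run from 250 bases before to 50 bases after a gene start, 5′ to 3′ on the gene's strand. The table held 6 such promoters for 4 of the 8 genes, 3 of them of *Pparg*. The *Cd36* promoter lies at chr5:17835847-17836146 on the minus strand, and its capitals mark TGACCT, the same word read on the other strand. The *Pparg* promoters that hold the word lie at chr6:115360894-115361193 and chr6:115362099-115362398 on the plus strand. The *Ucp2* promoter, at chr7:100493108-100493407 on the plus strand, held it on neither strand and is printed in lower case throughout.
Cd36: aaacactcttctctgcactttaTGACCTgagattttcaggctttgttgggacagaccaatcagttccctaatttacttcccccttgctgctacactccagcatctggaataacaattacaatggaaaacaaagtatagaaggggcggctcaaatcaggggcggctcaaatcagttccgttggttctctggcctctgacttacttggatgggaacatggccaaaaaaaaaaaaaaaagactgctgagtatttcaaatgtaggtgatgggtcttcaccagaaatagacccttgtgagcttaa
Pparg promoter 1: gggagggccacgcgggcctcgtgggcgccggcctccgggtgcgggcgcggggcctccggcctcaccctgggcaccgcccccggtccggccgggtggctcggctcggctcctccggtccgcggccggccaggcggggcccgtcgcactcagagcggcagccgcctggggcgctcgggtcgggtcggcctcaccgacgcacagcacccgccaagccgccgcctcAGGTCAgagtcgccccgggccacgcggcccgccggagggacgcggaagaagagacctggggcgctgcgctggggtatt
Pparg promoter 2: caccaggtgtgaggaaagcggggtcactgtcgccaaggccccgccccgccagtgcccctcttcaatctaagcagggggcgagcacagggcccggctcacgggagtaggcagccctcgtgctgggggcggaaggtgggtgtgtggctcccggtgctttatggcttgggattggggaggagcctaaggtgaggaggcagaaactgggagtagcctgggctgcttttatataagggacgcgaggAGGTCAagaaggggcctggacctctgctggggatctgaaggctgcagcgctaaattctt
Ucp2: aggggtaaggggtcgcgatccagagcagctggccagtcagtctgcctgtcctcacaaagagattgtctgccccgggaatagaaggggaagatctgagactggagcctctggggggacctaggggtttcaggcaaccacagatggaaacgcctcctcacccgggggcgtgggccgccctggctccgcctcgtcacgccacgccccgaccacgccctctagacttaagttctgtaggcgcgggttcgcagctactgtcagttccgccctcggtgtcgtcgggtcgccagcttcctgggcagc

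AGGTCA, searched on both strands, was present in these 3 of the 6 promoters and absent from those of *Ucp2*, *Ppargc1a* and the third of *Pparg*. It begins 228 bases before the gene start in *Cd36*, and 28 and 9 bases before it in the *Pparg* promoters. For comparison, 16.3% of 32851 promoters of the same length held it. The direct repeat AGGTCANAGGTCA was found in none of the 6 promoters and in 0.0396% of all. A match of letters is a description of the window and does not show binding.

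The array table holds 28856 transcript clusters, and the lowest and highest array medians were 62.8 and 71.6 signal units. A signal of 100 or more was reached by 9697 to 10097 of them on each array, and this level had to be met on 1 or more arrays of a comparison for a transcript cluster to be tested. *Cd2ap* itself was not shown to fall in arrays labelled mutant. Its log2 differences in limma were 0.18 in endothelial cells (adjusted p = 0.336), -0.23 in podocytes (adjusted p = 0.504) and -0.31 in mesangial cells (adjusted p = 0.151). For *Cd2ap* all mutant arrays lay below all wild type arrays in podocytes (as for 14.3% of all transcript clusters tested) and in mesangial cells (16.3%). In endothelial cells they all lay above (17.7%). Each direction therefore rests on the labels. The signals of *Xist* and *Ddx3y* put both sexes among the arrays. Wild type endothelial arrays were all female, while mutant endothelial arrays A and B were male and C was female. Wild type mesangial arrays B and C and podocyte arrays A (wild type) and B (mutant) were male, and the others were female. The labelled cell types carried their markers, with a summed signal of 10 endothelial markers of 13628 to 15885 in the 6 endothelial arrays. The summed signal of 8 mesangial markers was 7722 to 8692 in wild type and 6372 to 6915 in mutant mesangial arrays. In podocyte arrays this mesangial sum was 2701 to 3553 in the wild type and 3780, 2999 and 1488 in mutant arrays A, B and C. The part of mesangial RNA in the podocyte signals was not tested. Wild type mesangial array C stood apart from A and B. Its summed endothelial markers were 6946 against 2518 and 2903, and its summed 8 podocyte markers 3838 against 929 and 1079. Values of single genes that rest on it are given with and without it. In bulk RNA, fewer cells of a type and less RNA per cell cannot be told apart.

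In wild type arrays the 4 genes that bind or carry fatty acids or the lipase at the endothelium were higher in endothelial cells than in both other cell types, and *Lpl* and *Ppargc1a* were lower. *Cd36* read 1021, 864 and 1059.7 in wild type endothelial arrays A, B and C. In wild type podocyte arrays it read 110.1, 259 and 183, and in wild type mesangial arrays 52.1, 42.5 and 355. The endothelial arrays lay above all others, and the mesangial value of 355 belongs to the array that stood apart. The log2 difference of *Cd36* was 2.50 between endothelial cells and podocytes (standard error 0.68, adjusted p = 0.0161, limma) and 3.41 between endothelial and mesangial cells (standard error 0.68, adjusted p = 0.0042). Without wild type podocyte array A the first was 2.17 and not called (adjusted p = 0.0591), and without wild type mesangial array C the second was 4.38 (adjusted p = 3.6e-06).

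*Gpihbp1*, the endothelial anchor of lipoprotein lipase, read 932, 727 and 778 in wild type endothelial arrays. It read 210.4, 202 and 138 in podocyte arrays and 87.4, 108 and 238 in mesangial arrays. The groups did not overlap, and the log2 difference was 2.16 against podocytes (standard error 0.33, adjusted p = 0.000684, limma) and 2.62 against mesangial cells (standard error 0.33, adjusted p = 0.000254). *Fabp4*, a chaperone of fatty acids first known from adipocytes, read 1073, 922 and 884 in wild type endothelial arrays. It read 202, 197 and 115 in podocyte arrays and 63.5, 78.6 and 436 in mesangial arrays, the last again in array C. Its log2 differences were 2.53 and 2.88 (standard error 0.60 for both, adjusted p = 0.0084 and 0.0054, limma). *Fabp5*, the family member found in skin and in capillary endothelium, read 575, 481 and 405 in endothelial arrays against 127 to 136 in podocyte and 83.3 to 132 in mesangial arrays. The endothelial excess was 1.89 and 2.25 on the log2 scale (standard error 0.17 for both, adjusted p = 3.5e-05 and 1.1e-05, limma). Without wild type mesangial array C the excess over mesangial cells was 3.05 for *Gpihbp1*, 3.76 for *Fabp4* and 2.43 for *Fabp5*, all called. Both transcript clusters of *Fabp5* also carry the symbol of a *Fabp5*-like gene, so their signals cannot be assigned to *Fabp5* alone. Over the 18 arrays the pair had a Pearson's r of 0.997.

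*Lpl* had the opposite order. Wild type endothelial arrays read 141, 532 and 459.95, wild type podocyte arrays 1250.3, 908 and 926, and wild type mesangial arrays 977, 1190.8 and 889. Each wild type endothelial array thus lay below each other wild type array, with log2 differences of -1.64 against podocytes (standard error 0.42, adjusted p = 0.0117, limma) and -1.63 against mesangial cells (standard error 0.42, adjusted p = 0.0151). The second was not called without wild type mesangial array B (-1.52, adjusted p = 0.0515) and was -1.73 without array C. Without wild type endothelial array A, the lowest of the 3, the differences shrank to -1.04 and -1.03, both called. Wild type podocyte and mesangial arrays overlapped for *Lpl*.

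Of the regulators, *Pparg* was highest in mesangial cells. It read 184, 212 and 246 in wild type mesangial arrays, 123, 102 and 134 in endothelial arrays and 92.9, 115 and 105 in podocyte arrays. The mesangial excess was 1.03 over podocytes (standard error 0.14, adjusted p = 0.000573, limma), and endothelial cells lay 0.84 below mesangial cells on the log2 scale (adjusted p = 0.0017). Endothelial cells and podocytes overlapped, with a difference of 0.19 and a 95% interval of -0.13 to 0.51. *Ppargc1a* read 39.4 to 42.2 in wild type endothelial arrays, under the minimum of 100, against 82.9, 230.1 and 181 in mesangial arrays and 181, 172 and 92.5 in podocyte arrays. Its second transcript cluster read under 39 in all 18 arrays. *Ucp2* differed less between wild type cell types, with 203 to 252 in endothelial, 185 to 221 in mesangial and 251 to 336 in podocyte arrays. Mesangial cells were lower than podocytes by 0.49 (adjusted p = 0.0271, limma), but not without mesangial array A, mesangial array B or podocyte array A, with values of -0.45, -0.45 and -0.35 (adjusted p = 0.0806, 0.0847 and 0.0746). *Ucp2* in endothelial cells was not shown to differ from either. Without mesangial array C the *Pparg* differences were 0.93 and -0.74, and that of *Ucp2* was -0.58, all called.

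In wild type arrays 6 of the 8 genes passed an adjusted p of 0.05 between endothelial cells and podocytes, where 38.8% of all transcript clusters tested did. Between endothelial and mesangial cells 7 of 8 passed (32.0% of all), and between mesangial cells and podocytes 2 of 8 passed (27.9% of all). This last count was 6 without wild type mesangial array C, where 3233 of 12440 transcript clusters passed, and 1 without wild type mesangial array A. The 9 mutant arrays, which the wild type comparison does not use, gave 6 of 8 (47.1% of all), 7 of 8 (22.8%) and 3 of 8 (29.0%). The endothelial excess of *Cd36*, *Gpihbp1*, *Fabp4* and *Fabp5* over podocytes was 3.56, 3.10, 3.53 and 2.02 in mutant arrays, and that over mesangial cells 3.37, 3.37, 3.51 and 2.40. Of the genes lower in wild type endothelium, *Lpl* was not shown to differ in mutant arrays, at -0.13 (95% interval -1.20 to 0.94) against podocytes and -0.04 (95% interval -1.11 to 1.04) against mesangial cells. *Pparg* was higher in mutant endothelial cells than in mutant podocytes by 1.01 (adjusted p = 0.0082, limma), and *Ucp2* was higher than in mutant mesangial cells by 1.80 (adjusted p = 0.0012). The 2 contrasts of each genotype share their endothelial arrays.

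**Figure D1:**
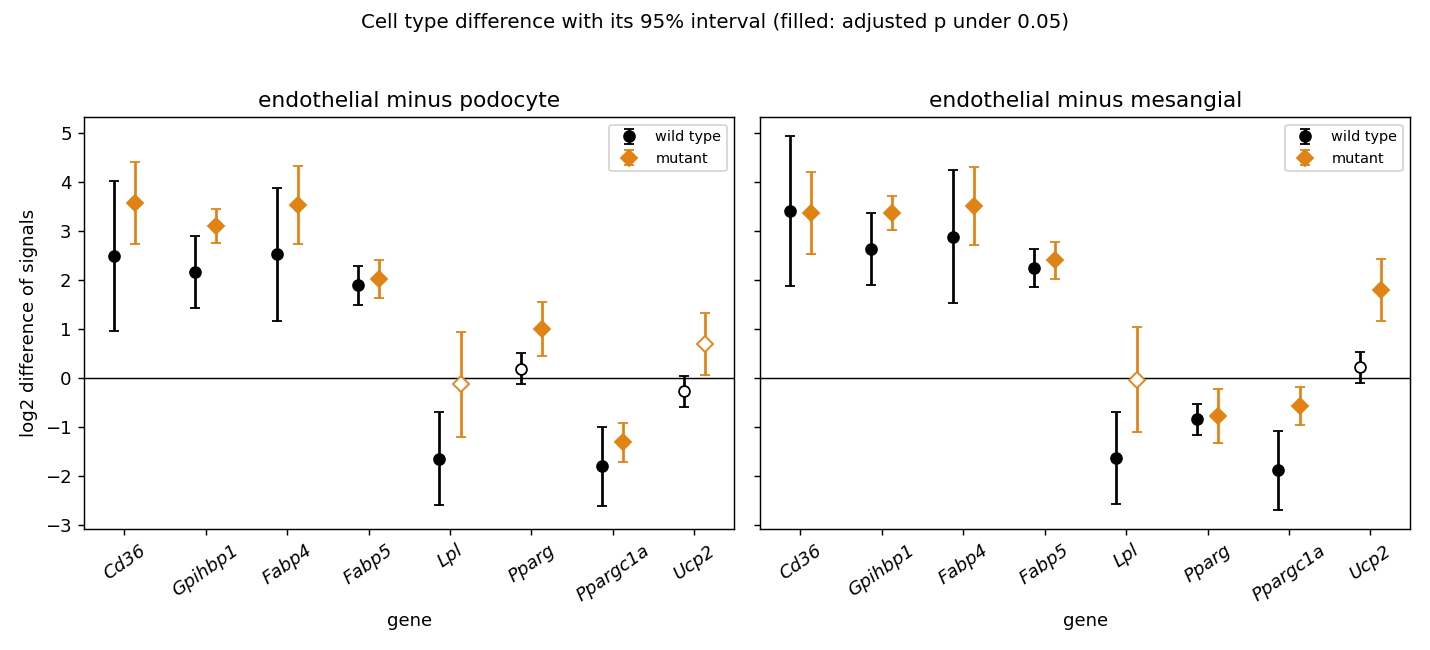
Log2 difference of signals between endothelial cells and podocytes (left) and between endothelial and mesangial cells (right) for each of the 8 genes, with 95% intervals, in wild type arrays (circles) and mutant arrays (diamonds), filled where the adjusted p is under 0.05. *Cd36*, *Gpihbp1*, *Fabp4* and *Fabp5* lie above 0 in all 4 comparisons, and *Lpl* lies below 0 with its interval in the wild type only.

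Other genes of the pathway were counted by list in wild type arrays. Of all transcript clusters tested, 21.9% were called higher and 16.9% lower in endothelial cells than in podocytes, and 15.9% higher and 16.1% lower than in mesangial cells. In the list of fatty acid uptake and activation, 3 of 10 genes tested were higher and 1 lower than in podocytes, and 2 were higher and none lower than in mesangial cells, with list medians of 0.09 and 0.14 beside 0.02 and 0.01 over all transcript clusters tested. *Cav1*, the main coat protein of caveolae, read 552 to 661 in wild type endothelial arrays, 185 to 209.97 in podocyte and 116 to 262 in mesangial arrays, with log2 differences of 1.65 and 1.95 (adjusted p = 0.000783 and 0.000351, limma). *Acsl5*, an enzyme that activates fatty acids to acyl-CoA, was higher by 0.92 and 0.69 (adjusted p = 0.000201 and 0.0014, limma). Of the partners of lipoprotein lipase and the lipoprotein receptors, 3 of 13 were higher and 7 lower than in podocytes, and 3 higher and 6 lower than in mesangial cells. *Lrp1*, a receptor for lipoprotein remnants, read 67.9 to 75.1 in wild type endothelial and 523 to 599 in mesangial arrays, a log2 difference of -2.97 (adjusted p = 1.6e-07, limma). *Hspg2*, a heparan sulphate proteoglycan of the basement membrane, was higher in endothelial cells by 1.10 and 1.06 against podocytes and mesangial cells (adjusted p = 0.000416 and 0.000628, limma).

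Among 10 tested regulators of endothelial fatty acid uptake, 7 were higher and 1 lower in wild type endothelial cells against each of the other cell types, with list medians of 1.05 and 0.99. *Aplnr*, the receptor of apelin, led these against podocytes at 2.71 (adjusted p = 0.000467, limma), and *Foxo1*, a transcription factor that restrains growth of the endothelium, was higher by 1.44 and 1.22 (adjusted p = 6.1e-05 and 0.000192). Several of these regulators, such as *Kdr* and *Flt1*, are themselves used as endothelial markers. Of 12 receptors, RXR partners and coregulators of PPAR tested, 3 were higher and 2 lower than in podocytes, and 2 higher and 3 lower than in mesangial cells. *Ncoa3*, a coactivator of nuclear receptors, was higher by 1.23 and 1.16 (adjusted p = 4.7e-05 and 7.6e-05, limma). For mitochondrial fatty acid oxidation, 1 of 13 genes tested was higher and 4 lower than in podocytes, and none was higher and 5 lower than in mesangial cells. *Decr1*, an enzyme that oxidizes unsaturated fatty acids, was lower by 0.82 and 0.70 (adjusted p = 0.0021 and 0.0062, limma). Of 10 PPAR targets tested, 2 were higher and 2 lower than in podocytes, and 1 higher and 2 lower than in mesangial cells, with list medians of -0.22 and -0.08. Without wild type mesangial array C the differences from mesangial cells were 2.31 for *Cav1*, 0.71 for *Acsl5*, -2.96 for *Lrp1*, 1.18 for *Hspg2*, 1.38 for *Foxo1*, 1.26 for *Ncoa3* and -0.69 for *Decr1*, all called.

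In *Cd2ap* mutant endothelial cells, *Gpihbp1* and *Ucp2* were higher than in wild type, *Fabp4* had the same direction just outside the threshold, and *Cd36* read lower in every mutant array. *Gpihbp1* read 1574, 1196 and 1430.2 in mutant endothelial arrays A, B and C, against the wild type 932, 727 and 778. Each mutant array lay above each wild type array, and the log2 difference was 0.78 (standard error 0.14, adjusted p = 0.0409, limma), a 1.72-fold difference. *Ucp2* read 395, 351 and 393 in mutant arrays and 238, 203 and 252 in wild type arrays. Its groups were apart by 0.72 (standard error 0.11, adjusted p = 0.0225, limma), 1.65-fold. Neither gene was called without mutant array A, mutant array C, wild type array B or wild type array C, with adjusted p of 0.112 to 0.181 for *Gpihbp1* and 0.0624 to 0.111 for *Ucp2*.

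*Fabp4* read 1477, 1306 and 1529 in mutant endothelial arrays and 1073, 922 and 884 in wild type arrays. The groups did not overlap, with a log2 difference of 0.59 (standard error 0.11, adjusted p = 0.0524, limma), which missed the threshold. Without wild type array A it passed at 0.67 (adjusted p = 0.0379). *Cd36* read 282, 572 and 648 in mutant endothelial arrays against 1021, 864 and 1059.7 in wild type arrays. The mutant mean of 501 ± 193 (SD, n = 3) was below the wild type mean of 982 ± 103 (SD, n = 3), and the groups did not overlap. The log2 difference was -1.05 (standard error 0.29, adjusted p = 0.131, limma) and was not called, with mutant array A the lowest of the 3. *Fabp5* read 540.5, 548 and 661 in mutant arrays, overlapping the wild type, at a difference of 0.27 (95% interval -0.07 to 0.61).

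At an adjusted p of 0.05, 2 of the 7 genes tested in endothelial cells were called, both higher, where 1.29% of 11330 transcript clusters were called and 1.21% were called higher. The study's screen (unadjusted p under 0.05 and fold change over 1.5) took 3 genes as higher, where it took 2.96% of all, and 1 as lower, where it took 0.865%. Mutant arrays lay beyond the wild type arrays for 3 genes upward, as for 17.7% of all transcript clusters, and for 1 gene downward, as for 7.34%. *Ppargc1a*, at 39.4 to 51.6 in the 6 endothelial arrays, did not reach the signal minimum and was not tested. The median log2 difference of the 7 genes was 0.59 beside 0.07 for all transcript clusters tested.

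The sex of the arrays moved with genotype here, since 2 of the 3 mutant endothelial arrays were male and all wild type ones female. A sex term in this comparison is therefore set by the mutant arrays alone. Each endothelial genotype difference with the sex term is that of mutant array C from the 3 wild type arrays, not an estimate over all mutant arrays. The female mutant array C, at 1430.2 for *Gpihbp1*, 1529 for *Fabp4* and 393 for *Ucp2*, lay above the 3 female wild type arrays for each gene. With a sex term, added after the data were seen, the log2 differences were 0.82 for *Gpihbp1*, 0.68 for *Fabp4* and 0.77 for *Ucp2*, with adjusted p of 0.281, 0.249 and 0.201 in limma, none called. For *Cd36* the female mutant array, at 648, was the nearest to the wild type, and the difference with the sex term was -0.59 (adjusted p = 0.664). Leaving out mutant array A gave -0.68 for *Cd36* (without the sex term), the smallest of the values with 1 array left out.

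*Lpl* followed another course in mutant endothelium. It read 947 and 1027 in the male mutant arrays A and B and 308 in the female mutant array C, which lies among the wild type values of 141, 532 and 459.95. The log2 difference was 1.04 (standard error 0.59, adjusted p = 0.382, limma). With the sex term, which sets mutant array C alone against the wild type arrays, it was -0.080. In podocytes *Lpl* read 1250.3 in the male and 908 and 926 in the female wild type arrays, and 418 in the male and 997 and 942 in the female mutant podocyte arrays. *Pparg* in mutant endothelial arrays read 261, 164 and 129 against wild type values of 102 to 134. Its difference of 0.57 (standard error 0.24, adjusted p = 0.265, limma) became 0.12 with the sex term, again for mutant array C alone. The summed signal of 10 macrophage and leukocyte markers had the same order in the mutant endothelial arrays, at 883, 711 and 572 in A, B and C, beside 569 to 660.01 in wild type arrays. Of its markers *Lyz2* read 202, 134 and 54.1, *Ptprc* 168, 101 and 76.3 and *Cd68* 111, 91.9 and 64.4. *Itgam* had this order too but stayed under 41, while the other 6 did not have it, and *Cd74* and *Cd3e* had the opposite order. Macrophages express both *Lpl* and *Pparg*, and the part of these cells in either signal was not tested. Of 6 adipocyte markers, 1 averaged at least 100 in endothelial arrays, and *Adipoq*, which defines adipocytes, read 25.1 to 28.7 in all 18 arrays.

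**Figure D2:**
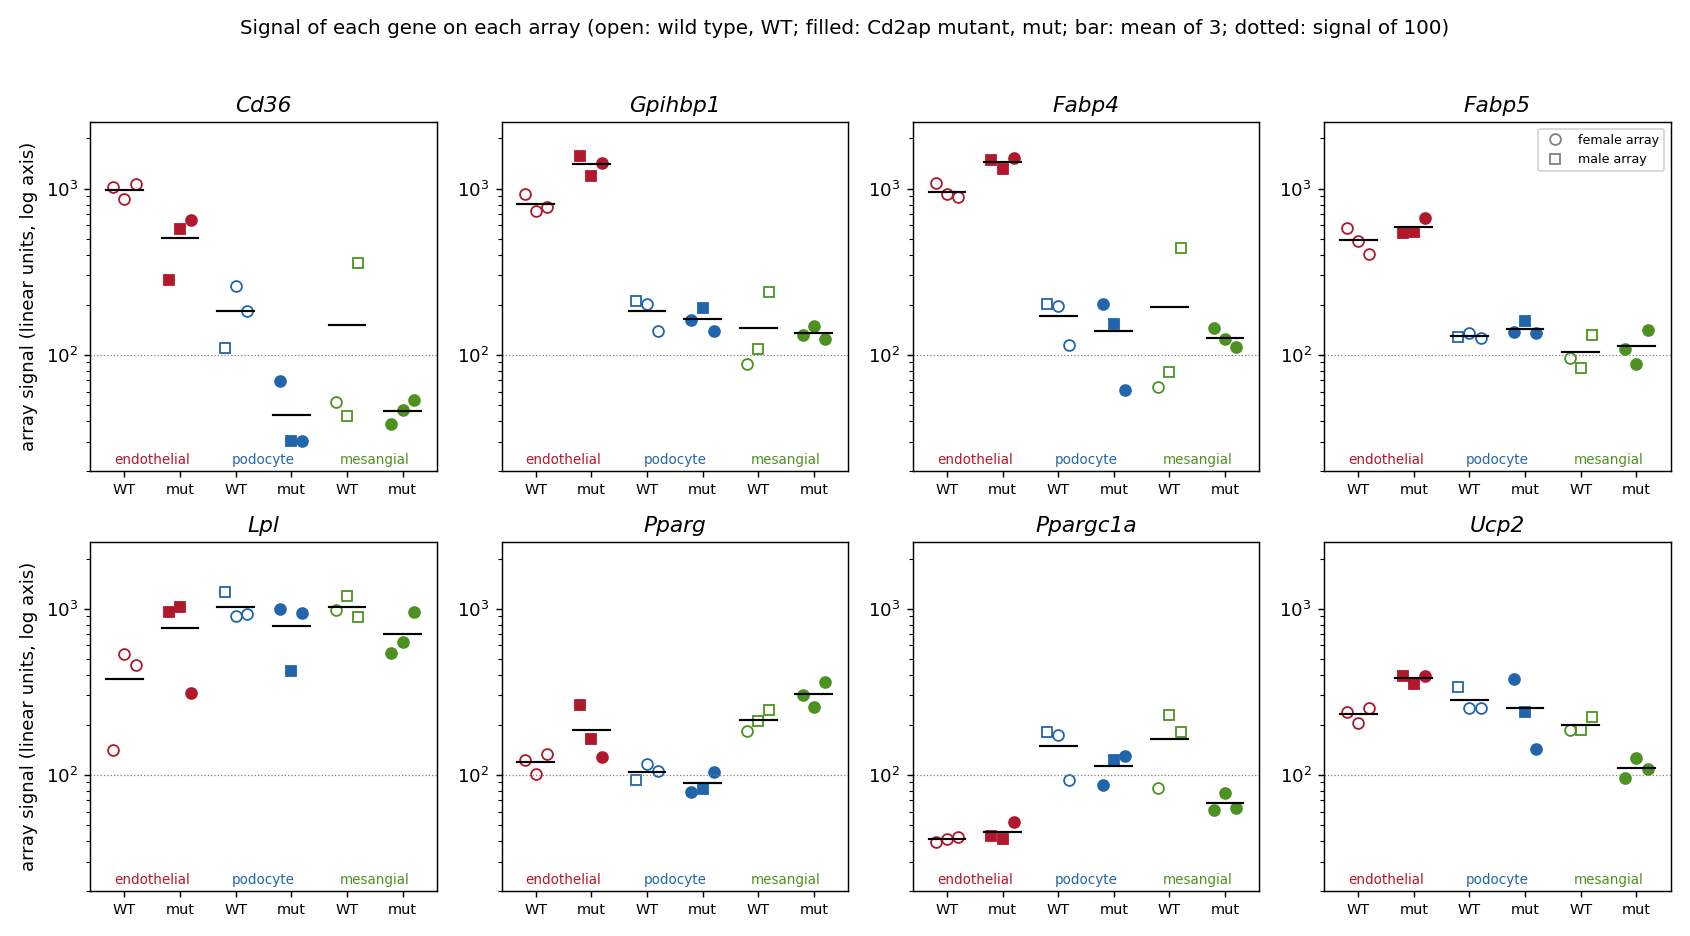
Signal of each of the 8 genes (linear units on a log axis) on each of the 18 arrays, wild type open and *Cd2ap* mutant filled, with circles for female and squares for male arrays and a bar for the mean of 3. Mutant endothelial arrays lie above wild type for *Gpihbp1*, *Fabp4* and *Ucp2* and below for *Cd36*, while *Lpl* is high in the male mutant endothelial arrays and 308 in the female one.

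Among 7 tested targets of PPAR in endothelial cells, 2 were called higher in the mutant, and none was called lower, where 1.21% of all were called higher. Of the 7, 5 had an unadjusted p under 0.05, as did 18.5% of all, and their median was 0.26 beside 0.07 for all. *Plin2*, which coats lipid droplets, read 585, 353 and 486 in mutant and 257, 228 and 227 in wild type arrays, a log2 difference of 0.97 (standard error 0.18, adjusted p = 0.0475, limma). *Cpt1a*, which admits long-chain fatty acids to mitochondria, read 369.1, 391 and 379.9 in mutant and 219, 242 and 181 in wild type arrays, a difference of 0.84 (standard error 0.12, adjusted p = 0.0182). *Plin2* was not called without any 1 of 5 arrays (all but mutant B, adjusted p of 0.0578 to 0.192), nor *Cpt1a* without mutant A, mutant C or wild type C (adjusted p of 0.0551 to 0.0753). With the sex term, which leaves mutant array C against the wild type arrays, these were 1.04 and 0.84 (adjusted p = 0.281 and 0.204, limma), not called. In the other 5 lists limma called 0 of the 53 genes tested in endothelial cells, and 10 of them had an unadjusted p under 0.05, near the 18.5% of all. None of the regulators of fatty acid uptake was taken by the screen either.

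Mutant podocyte arrays were less alike than the arrays of any other group. Pearson's r of log2 signals between them was 0.967 to 0.971, against 0.980 to 0.992 within the other groups, which limits what this comparison can show. In podocytes no gene of the 8 was called in limma (0.0578% of 12113 transcript clusters were), and 1 had an unadjusted p under 0.05. This was *Cd36*, which read 69.1, 30.3 and 30.1 in mutant podocyte arrays against 110.1, 259 and 183 in wild type arrays. All mutant arrays lay below all wild type arrays, as for 14.3% of all transcript clusters, and the log2 difference was -2.12 (standard error 0.40, adjusted p = 0.135). The screen took *Cd36* alone of the 8, as lower, where it took 4.34% of all as lower. It passed at an adjusted p of 0.0443 where all 18 arrays were fitted together, and of 0.0261 without mutant array A. Endothelial markers moved with it. Their summed signal was 4602, 5357 and 4071 in wild type podocyte arrays and 2662, 1360.4 and 967 in mutant ones. *Pecam1*, a junction protein of endothelial cells, read 590.4, 600.1 and 455 against 289.9, 237 and 84.5. The part of endothelial RNA in the *Cd36* signal of podocyte arrays was not tested.

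The other genes of the 8 with high endothelial signal were not shown to fall in podocyte arrays. *Gpihbp1* read 162, 189.8 and 139 in mutant podocyte arrays and 210.4, 202 and 138 in wild type ones, at a log2 difference of -0.15 (95% interval -0.62 to 0.31). *Fabp5* read 137, 159 and 135 in mutant against 127 to 136 in wild type arrays, at 0.14 (95% interval -0.15 to 0.43). *Fabp4* read 202, 154 and 61.4 in mutant arrays, and its difference of -0.42 had a 95% interval of -1.43 to 0.60. *Lpl*, *Pparg*, *Ppargc1a* and *Ucp2* overlapped between genotypes, with differences of -0.47, -0.24, -0.35 and -0.24, none called. Of the 6 pathway lists limma called 0 genes in podocytes, and 10 of 66 genes tested had an unadjusted p under 0.05, near the 14.3% of all. Of these 66 the screen took 1 as higher (1.26% of all), *Pdk4*, whose product inhibits pyruvate dehydrogenase, and 3 as lower (4.34% of all), the vascular growth factor receptors *Flt1*, *Nrp1* and *Kdr*. The summed endothelial markers were lower in the same mutant arrays, at 967 to 2662 against 4071 to 5357, and the part of endothelial RNA in these signals was not tested.

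**Figure D3:**
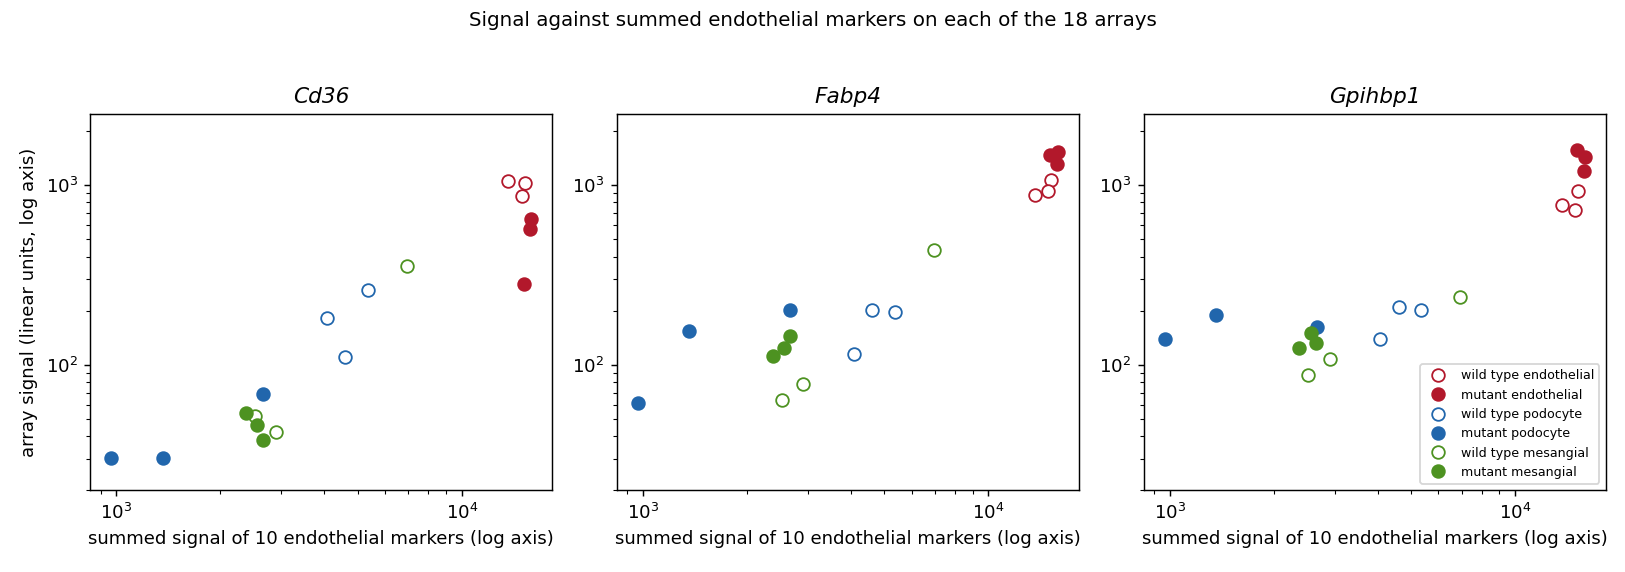
Signals of *Cd36*, *Fabp4* and *Gpihbp1* on each of the 18 arrays against the summed signal of 10 endothelial markers on the same array, both on log axes, with mutant arrays filled. *Cd36* runs from 259 to 30.1 over the podocyte arrays and is lowest where the marker sum is lowest. *Fabp4* is also lowest on that array, at 61.4, and reads 115 to 202 on the other podocyte arrays. *Gpihbp1* stays between 138 and 210.4 over the podocyte arrays, and wild type mesangial array C lies at a sum of 6946.

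In mesangial cells *Ucp2* was lower in the mutant. It read 95.9, 126 and 108 in mutant mesangial arrays and 185, 187 and 221 in wild type arrays, without overlap. The log2 difference was -0.85 (standard error 0.13, adjusted p = 0.0281, limma), a 1.81-fold decrease. With a sex term it was -0.76 and not called (adjusted p = 0.29, limma). That value sets the mutant arrays, all female, against wild type array A alone, the only female control. Over all alternatives *Ucp2* was called in 7 of 15. *Ucp2* was called without wild type array C and not without any other 1 of the 6 mesangial arrays, with differences of -0.95 to -0.76 and adjusted p of 0.056 to 0.0937. It was the only one of the 8 genes called, where 2.92% of 11457 transcript clusters were called and 1.68% were called lower. The genotype effect on *Ucp2* was tested against that in endothelial cells, and the difference of 1.57 passed (95% interval 0.85 to 2.30, adjusted p = 0.0369, limma, where 1.07% of 13523 transcript clusters passed). It did not pass with the sex term (1.40, adjusted p = 0.241) and passed in 9 of 25 alternatives, 4 of them among the 18 fits with 1 array left out. It was lost without any 1 of the 12 endothelial and mesangial arrays or wild type podocyte array B or C (adjusted p of 0.0511 to 0.089).

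*Ppargc1a* read 61.0, 77.8 and 62.6 in mutant mesangial arrays and 82.9, 230.1 and 181 in wild type arrays. The groups did not overlap (16.3% of all were lower without overlap), and the screen took it as lower at -1.18 (standard error 0.36, adjusted p = 0.134, limma). The female wild type array, A, was the one at 82.9, and all mutant mesangial arrays were female. The value with a sex term, which sets the mutant arrays against wild type array A alone, was -0.31. Without array A the difference passed at -1.61 (adjusted p = 0.0231, limma). *Pparg* was higher in each mutant mesangial array, at 303, 255 and 361 against 184, 212 and 246 (12.3% of all were higher without overlap). Its difference of 0.51 (standard error 0.16, adjusted p = 0.142, limma) was not called, and the 1.43-fold change missed the screen. The screen took 2 of the 8 genes as lower, *Ucp2* and *Ppargc1a*, where it took 3.12% of all as lower. *Lpl* read 541, 628 and 951 in mutant arrays and 977, 1190.8 and 889 in wild type arrays, at -0.56 (standard error 0.22, adjusted p = 0.211).

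For the genes with high endothelial signal the mesangial comparison turned on wild type array C. *Fabp4* read 144, 125 and 111 in mutant mesangial arrays and 63.5, 78.6 and 436 in wild type arrays. Its log2 difference was -0.04 with array C and 0.83 without it (adjusted p = 0.0495, limma). That of *Gpihbp1*, at 132, 149 and 124 against 87.4, 108 and 238, was 0.04 with array C and 0.47 without it. *Cd36* read 38.2 to 53.7 in mutant mesangial arrays and differed by -1.02 (95% interval -2.82 to 0.79). Without array C all its signals were under 100, and it was not tested. *Fabp5* differed by 0.11 with array C and 0.30 without it. The differences of the other genes without array C were -0.65 for *Lpl*, 0.62 for *Pparg*, -1.05 for *Ppargc1a* and -0.77 for *Ucp2*, with *Ucp2* called and the others not. Of the pathway lists, limma called *Abca1* among 10 tested PPAR targets as higher. This cholesterol exporter read 278, 208 and 214 in mutant and 94.02, 125 and 144 in wild type mesangial arrays, a difference of 0.96 (standard error 0.19, adjusted p = 0.0497), and it was not called without any 1 of 5 arrays (all but wild type C, adjusted p of 0.0924 to 0.145). Without wild type array C the difference was 1.10 (adjusted p = 0.0415). In the other 5 lists limma called 0 of 54 genes tested, and 8 had an unadjusted p under 0.05, where 21.7% of all did. The value for *Abca1* in endothelial cells was 0.94, not called at an adjusted p of 0.0641.

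**Figure D4:**
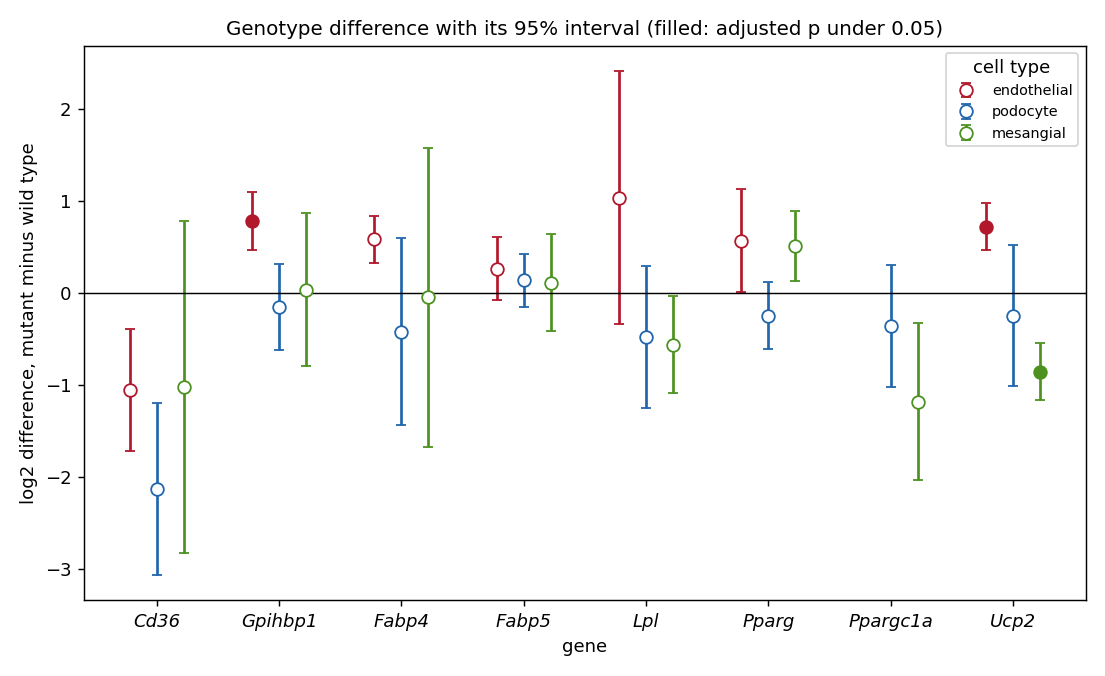
Log2 difference of signals between *Cd2ap* mutant and wild type arrays for each of the 8 genes in each cell type, with 95% intervals, filled where the adjusted p is under 0.05. *Gpihbp1* and *Ucp2* are called higher in endothelial cells and *Ucp2* lower in mesangial cells, at -0.85, and *Ppargc1a* was not tested in endothelial cells.

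Between endothelial cells and podocytes limma called 0 of the 8 genes for a different genotype effect (2.11% of all were called), with 4 at an unadjusted p under 0.05 (23.4% of all): *Gpihbp1*, *Lpl*, *Pparg* and *Ucp2*. Between podocytes and mesangial cells it called 0 (0.717% of all), with 1 at an unadjusted p under 0.05, *Pparg* (12.0% of all). The genotype effects on *Gpihbp1* and *Cd36* are therefore not shown to differ between cell types, with interaction values of 0.94 (adjusted p = 0.164) for *Gpihbp1* and 1.07 (adjusted p = 0.455) for *Cd36* between endothelial cells and podocytes.

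Across the 18 arrays the patterns of *Gpihbp1*, *Fabp4* and *Fabp5* were alike, with a Pearson's r of log2 signals of 0.97 between *Gpihbp1* and each of the others and of 0.93 between *Fabp4* and *Fabp5*. *Cd36* had an r of 0.88 with *Fabp4* and 0.83 with *Gpihbp1*, and *Lpl* had -0.47 with *Gpihbp1*. These values share the contrast of 6 endothelial arrays with 12 others. Among 12605 transcript clusters, the genes most like *Gpihbp1* were *Pde2a*, *Upp1* and *Cd300lg* (r = 0.99 for each). Those most like *Fabp4* were *Sox18* (0.98), *Gpihbp1* and *Cd300lg* (0.97 for both), and those most like *Fabp5* were *Tspan14*, *Shank3* and *Ccbp2* (0.98 for each). *Cd36* was nearest to *P2ry1*, *Olfr1396* and A130022J15Rik (0.96 for each). *Pparg* was nearest to *Nuak1* (0.91), *Rp2h* and *Man1c1* (0.89 for both), *Ppargc1a* to *Spire1* (0.91), *Hspa12a* and *Hist2h2be* (0.89 for both), and *Ucp2* to *Ybx1* (0.90), *Ube3b* (0.87) and the shared transcript cluster of *Tm6sf1* and *Hdgfrp3* (0.86). No gene followed *Lpl* as closely, the nearest being *Atp6ap1* (0.80), 2510003E04Rik (0.78) and the transcript cluster of *Fam103a1* and *Gm10767* (0.75).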

How the data were processed

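Amplified RNA of sorted cells (Ribo-SPIA, single round) was read on Mouse Gene 1.0 ST arrays. The authors deposited a linear intensity per transcript cluster and array, made by RMA (background correction, quantile normalization, summary over probes) per the labels. The 18 columns headed normalized were not used. The series record names Exon arrays and GeneBASE instead. Log2 signals were compared with lmFit and eBayes (limma 3.58.1, R 4.3.3), without covariates, over transcript clusters that reached 100 on 1 or more arrays of the comparison, with Benjamini-Hochberg adjustment over all of them. Genotypes were compared within a cell type (6 arrays), cell types within a genotype (9 arrays), and genotype effects between cell types as interactions over 18 arrays. The script was tested on simulated data.

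A gene with several transcript clusters was read from the brightest. The 8 genes and the pathway and marker lists were chosen with earlier results of these data known. Named list genes are those called, at most 4 per list and comparison, and those a result turns on. Alternatives were another signal minimum or none, an intensity trend with robust eBayes, array medians subtracted, 50 added before log2, array weights, all 18 arrays in 1 fit, and each array left out. A sex term, female arrays only and leaving out wild type mesangial array C were added after seeing the data. Precision is limited by the 3 arrays per group. The study's RNA-seq was not analysed here.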

Additional observations from a re-analysis of the deposited data

Results flagged for a closer look

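The genotype effect on *Ucp2* differed between endothelial and mesangial cells by 1.57 on the log2 scale (standard error 0.34, adjusted p = 0.0369, limma interaction over 18 arrays), since *Ucp2* was higher in each mutant endothelial array and lower in each mutant mesangial array than in every wild type array of its cell type. The mutant mesangial arrays were all female and the mutant endothelial arrays 2 male and 1 female. With a sex term the difference was 1.40 (adjusted p = 0.241), and with single arrays left out it was 1.48 to 1.68, called in 4 of 18 such fits.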

How the results depend on the processing

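Of the 8 genes, the number called for genotype in endothelial cells (2) was 0 with no signal minimum, with all 18 arrays in 1 fit, with the sex term and with female arrays only (1 mutant array), 3 (with *Fabp4*) in the other 5 alternative fits of all arrays, 4 by the screen, and 0 to 3 with 1 array left out. In podocytes 0 became 1 with 18 arrays and by the screen, and was 0 to 1 with 1 array left out. In mesangial cells 1 became 0 with the sex term and with female arrays only, 2 by the screen, and was 0 to 2 with 1 array left out. The gene called there was not always *Ucp2*, which was called in 7 of 15 alternatives, while *Ppargc1a* was called in 2 of 13. Without wild type mesangial array A, *Ppargc1a* was called and *Ucp2* was not. The difference of the genotype effect between endothelial and mesangial cells (1 gene) was 0 with no minimum and with the sex term, and 0 to 1 with 1 array left out. That between endothelial cells and podocytes was 0 to 1, and that between podocytes and mesangial cells 0 throughout. For cell types in wild type arrays the counts were 5 to 6 (endothelial against podocyte), 6 to 7 (endothelial against mesangial) and 1 to 6 (mesangial against podocyte, where the 2 became 1 with array medians subtracted or 18 arrays, and 6 without wild type mesangial array C). In mutant arrays they were 6 to 7, 5 to 7 and 2 to 3. All 31 cell type calls of the genes kept their direction under the alternatives run, and 24 stayed called in each.

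*Gpihbp1* and *Ucp2* in endothelial cells kept their direction in 15 of 15 alternatives and were called in 7 each. With 1 array left out they were called in 2 of 6 fits, with log2 differences of 0.70 to 0.89 and 0.63 to 0.79. *Fabp4* was called in 6 of 15. *Lpl* in endothelial cells reversed to -0.080 with the sex term and with female arrays only, both of which rest on mutant array C alone. In podocytes it reversed to 0.080 with female arrays only. *Fabp4* in mesangial cells reversed to 0.30 with array weights, and ranged from -0.56 to 0.83 with 1 array left out. It was 0.99 with the sex term and with female arrays only, both of which rest on 1 wild type array, A. Small differences also crossed 0 with 1 array left out: *Gpihbp1* (-0.25 to 0.47) and *Fabp5* (-0.061 to 0.30) in mesangial cells, and *Fabp4* (-0.77 to 0.090) and *Ucp2* (-0.59 to 0.11) in podocytes. The cause was not tested, except that fewer arrays enter these fits.

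Over all transcript clusters the genotype calls in endothelial cells numbered 146, and from 21 with female arrays only and 28 with the sex term to 271 with array medians subtracted. In mesangial cells the 335 became 1 with the sex term and 729 with an intensity trend, and in podocytes the 7 became 837 with all 18 arrays. With 1 array left out the counts were 49 to 253 in endothelial cells, 50 to 304 in mesangial cells and 0 to 344 in podocytes, with 344 without mutant array A, 2 without wild type array A or C, 1 without mutant array B and 0 without mutant array C or wild type array B. Subtracting array medians moved the mutant contrast of endothelial cells and podocytes by 0.13 on the log2 scale, the difference of genotype effects between them by 0.10, and the others by less than 0.1. No paired analysis was possible because the sample titles number the samples without sharing a number between groups and the columns carry no number.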
